A study of Mus musculus with 16 samples.

Results

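The AP-1 family genes described here are the Fos genes Fos, Fosb and Fosl2, the Jun genes Jun, Junb and Jund, and 2 related genes, Batf and Atf3. They were taken by name from the gene table, 8 of the 24421 genes in it, and all 8 passed the filter on low counts together with 13554 genes in all. RNA sequencing measured them in naive T cells sorted from lymph nodes of C57BL/6 mice by their surface level of CD5, a surface receptor that dampens signals from the T cell receptor. The groups were CD8+ CD5hi, CD8+ CD5lo, CD4+ CD5hi and CD4+ CD5lo cells, with 4 biological replicates each and 16 libraries in all. CD5hi and CD5lo were the third of the cells with the most and the third with the least surface CD5. The cells of every group were untreated, lacked CD25 and carried high CD62L and low CD44, which is the gate for naive cells. The age of the mice, whether a replicate came from 1 animal or from pooled animals, and whether replicates came from separate animals are not stated in the labels. The p-values therefore measure only the spread between these samples, which may be technical.

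AP-1 is a family of transcription factors that bind DNA as pairs through a basic leucine zipper. JUN proteins pair with each other or with FOS proteins, FOS proteins need a JUN partner, BATF pairs with JUN proteins and acts with the factors IRF4 and IRF8, and ATF3 is a stress-induced relative. In T cells AP-1 acts with NFAT downstream of the T cell receptor to switch on activation genes, and Fos, Fosb, Jun, Junb and Atf3 are immediate-early genes, whose RNA rises within minutes of a stimulus, including the stress of preparing cells.

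The genes lie on chromosomes 1, 4, 5, 7, 8 and 12 of the mouse genome, build GRCm38, which is also called mm10. Fos spans chr12:85473890-85477273 on the plus strand and Batf chr12:85686669-85709087 on the plus strand. Fosb spans chr7:19302696-19310051 on the minus strand, Fosl2 chr5:32135801-32157842 on the plus strand and Atf3 chr1:191170296-191218039 on the minus strand. Jun spans chr4:95049034-95052222 on the minus strand, Junb chr8:84974484-84978718 on the minus strand and Jund chr8:70698949-70700616 on the plus strand. Exons were counted in a single annotated transcript of each gene. In it Jun, Junb and Jund each have a single exon, Batf has 3 exons and the other 4 genes have 4 exons each. The annotated exons of Junb cover 2301 bases, fewer than its span. Jund shares 52.6% of its exonic bases with an antisense gene, Gm11175, Jun shares 7.28% with Junos and Junb shares 7.52% with Prdx2. The strand setting of the counting is not stated in the labels, so reads of Jund and Gm11175 cannot be told apart.

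The windows around the start sites of the 4 immediate-early members with the best-defined starts are shown because the first bases before a start hold some of the elements through which signals act on such genes; more distant elements lie outside them. Each runs from 250 bases before to 50 bases after the RefSeq start on GRCm38.p6, 5′ to 3′ on the gene's strand, and that start lies within 30 bases of the annotated gene start. They are chr12:85473640-85473939 on the plus strand for Fos, chr7:19309996-19310295 on the minus strand for Fosb, chr4:95052173-95052472 on the minus strand for Jun and chr8:84978699-84978998 on the minus strand for Junb. Capitals mark matches, on either strand, to TATAAA, to TGACG, the core of a cAMP response element, to TGACATCA, a site bound by JUN with ATF2, and to TGANTCA, the AP-1 site itself.
Fos: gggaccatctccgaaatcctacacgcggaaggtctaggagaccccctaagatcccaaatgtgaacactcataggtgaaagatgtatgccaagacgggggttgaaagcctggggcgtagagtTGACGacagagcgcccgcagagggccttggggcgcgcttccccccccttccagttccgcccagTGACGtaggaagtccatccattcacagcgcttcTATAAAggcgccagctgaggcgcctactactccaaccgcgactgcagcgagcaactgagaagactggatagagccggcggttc
Fosb: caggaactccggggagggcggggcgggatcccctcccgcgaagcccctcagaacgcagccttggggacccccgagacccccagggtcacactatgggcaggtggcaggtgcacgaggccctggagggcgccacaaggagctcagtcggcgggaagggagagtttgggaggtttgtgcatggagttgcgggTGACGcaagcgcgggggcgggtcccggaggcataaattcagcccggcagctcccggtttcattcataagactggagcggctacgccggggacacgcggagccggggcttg
Jun: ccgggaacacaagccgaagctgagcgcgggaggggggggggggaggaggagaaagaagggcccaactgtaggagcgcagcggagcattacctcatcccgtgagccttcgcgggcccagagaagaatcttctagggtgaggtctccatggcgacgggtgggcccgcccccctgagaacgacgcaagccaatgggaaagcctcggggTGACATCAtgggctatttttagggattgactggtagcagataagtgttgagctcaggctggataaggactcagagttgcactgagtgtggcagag
Junb: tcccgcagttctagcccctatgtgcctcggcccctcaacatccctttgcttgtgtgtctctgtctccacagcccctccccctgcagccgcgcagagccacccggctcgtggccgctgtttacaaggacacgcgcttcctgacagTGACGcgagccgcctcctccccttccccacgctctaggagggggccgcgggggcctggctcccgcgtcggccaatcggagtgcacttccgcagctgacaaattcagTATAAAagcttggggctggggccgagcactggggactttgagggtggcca

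TGACG was found in the windows of 5 of the 8 members, Fos, Fosb, Junb, Batf and Atf3, against 20.8% of 32851 windows of this length. Fos held it at positions -129 and -66 from its start and TATAAA at -33. Jun held TGACATCA at -45, a word found in 3.62% of all windows. TATAAA was in 2 of the 8 windows and in 13.6% of all, and CCAAT, not capitalised above, was in 3 of the 8 and in 37.4% of all. In Junb TATAAA began at position 1, the RefSeq start itself and not before it. The annotated gene start of Junb lies 30 bases downstream of that RefSeq start. TGANTCA was in 0 of the 8 windows and in 7.81% of all. The words were searched on both strands, do not overlap each other in these 4 windows, and describe these letters alone.

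The libraries held 71447252 to 93418385 counts, with a median of 78528233, so the precision of the 7 more abundant members is set by the spread between libraries and not by counting. Cd5 averaged 498 ± 37.8 CPM (counts relative to the scaled library total; SD, n = 4) in CD8 CD5hi cells against 200 ± 12.3 CPM in CD8 CD5lo cells, and 1386 ± 34.4 CPM in CD4 CD5hi cells against 255 ± 19.5 CPM in CD4 CD5lo cells. Cd8a ran at 1563 to 2140 CPM in CD8 libraries and 0.693 to 11.4 CPM in CD4 libraries. A set of 3 libraries stood apart, CD8 CD5hi replicate 4, CD8 CD5lo replicate 3 and CD4 CD5lo replicate 3, in which 16 B cell markers summed to 1015, 625 and 396 CPM against 11.5 to 74.6 CPM in the other 13; they are called the B-cell-rich libraries here. Cd4 reached 62.2 and 27.2 CPM in the CD8 libraries of those 3, against 0.415 to 2.51 CPM in the other CD8 libraries. Results are given with and without those libraries where it matters. The 14 myeloid markers summed to 11.6 to 48.3 CPM in every library, and 5 of 6 erythroid and platelet markers had 0 counts in every group.

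Per kilobase of exon, the level order was close to the same in the 4 groups. Junb was first, with a mean of 577 ± 118 CPM per kb in CD8 CD5hi cells, 691 ± 143 in CD8 CD5lo cells, 1143 ± 179 in CD4 CD5hi cells and 1205 ± 162 in CD4 CD5lo cells (SD, n = 4 each). It ranked 26th to 65th among the 13024 tested genes with a known length, so these resting, naive-gated cells held Junb RNA at a level few genes reached. Jund followed at rank 47 to 75, and its level lay within the spread of that of Junb in CD8 cells. Jun ranked 76 to 146 and Fos 110 to 140, and which of the pair came first differed between groups. In CD8 CD5hi cells Fos had 272 ± 26.4 and Jun 236 ± 50.01 CPM per kb, within their spread, while in CD4 CD5lo cells Fos had 285 ± 137 and Jun 511 ± 86.0. Fosb ranked 1212 to 2635 and Batf 2229 to 3143; Batf stood above Fosb in CD4 CD5hi cells alone, at 22.7 ± 3.35 against 19.6 ± 4.30 CPM per kb, within their spread. Fosl2 ranked 3938 to 5096, and its own spread over replicates was nearly as large as its mean. Atf3 was close to silent, at rank 9656 to 11377. Together the 8 genes took 0.308 to 0.723% of all counts of a library.

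**Figure D1:**
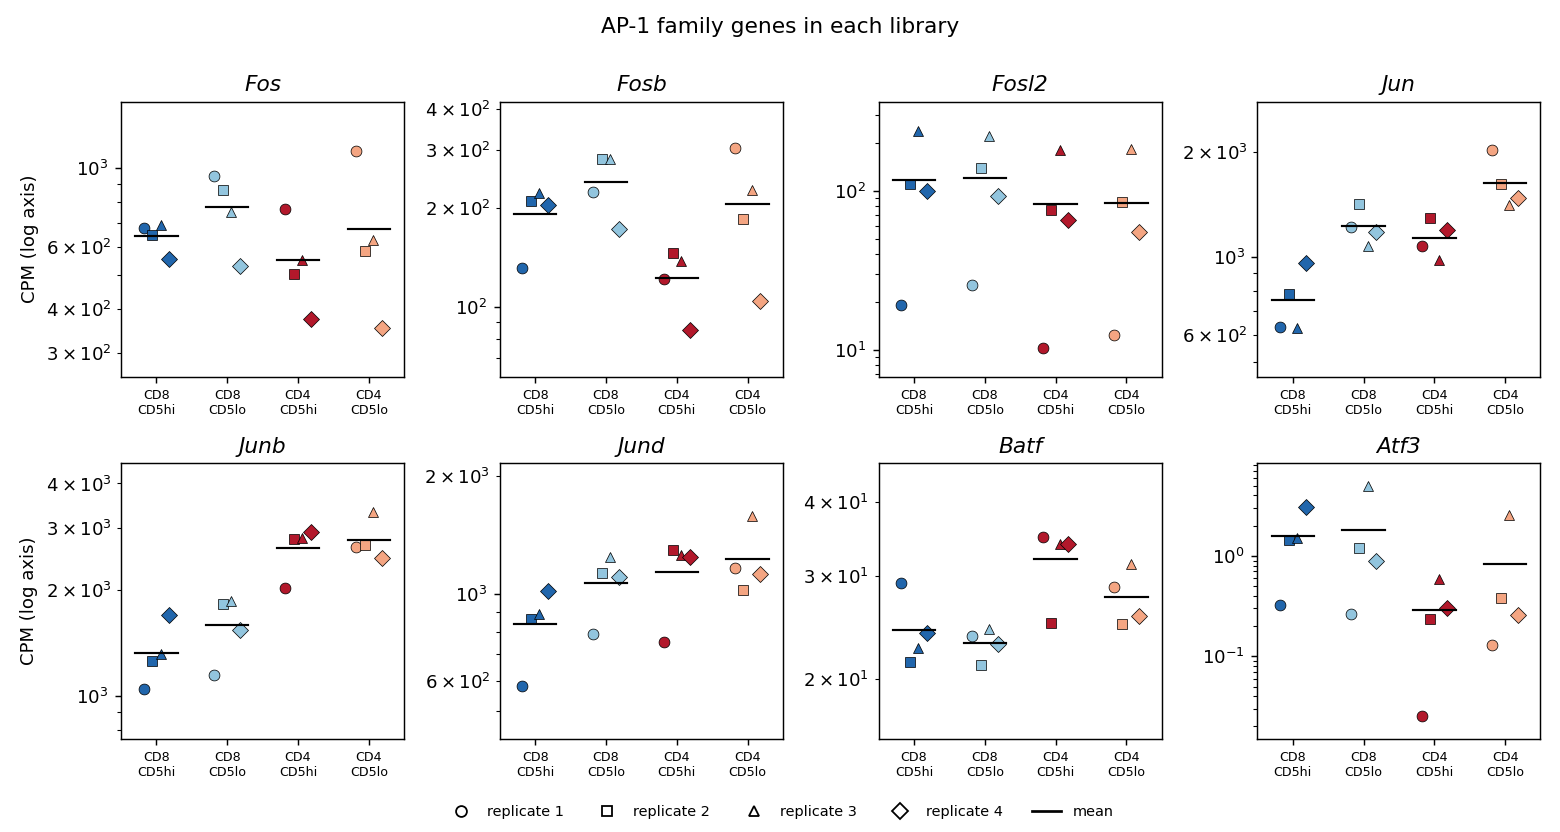
Level of each of the 8 genes in each of the 16 libraries, in CPM on a log axis, by group, with the marker shape giving the replicate number and the bar the mean of 4. Jun separates the CD5hi from the CD5lo libraries of each lineage, Junb separates CD8 from CD4 libraries, and Fosl2 has its highest value in replicate 3 and its lowest in replicate 1 of every group.

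Jun encodes c-Jun, the strongest activator among the JUN proteins and a partner of FOS and BATF. In replicates 1 to 4, Jun had 631.4, 784.1, 627.4 and 964.5 CPM in CD8 CD5hi cells against 1219, 1421, 1077 and 1180 CPM in CD8 CD5lo cells. Every CD8 CD5hi library lay below every CD8 CD5lo library. Jun fell to 752 ± 160 CPM in CD8 CD5hi cells, against 1224 ± 144 CPM in CD8 CD5lo cells (SD, n = 4 each), a log2 change of -0.70 ± 0.15 (SE) with an adjusted p of 0.00572 in edgeR's quasi-likelihood test with Benjamini-Hochberg adjustment. The fall was larger without the 3 B-cell-rich libraries, at -0.89 on the log2 scale (edgeR adjusted p = 0.000879). In bulk samples, fewer cells holding an RNA and less of it per cell cannot be told apart.

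In CD4 cells Jun had 1074, 1292, 979.4 and 1198 CPM in CD5hi libraries against 2019, 1619, 1405 and 1475 CPM in CD5lo libraries. Again no CD5hi library reached the lowest CD5lo library, and CD5hi was the lower in 4 of 4 pairs of the same replicate number. The log2 change was -0.52 ± 0.15, and it missed the threshold with an edgeR adjusted p of 0.0602. Samples of the same replicate number correlated above 0.1 between the CD4 groups. That did not hold for every pair of groups in the blocked fit, which used all 16 libraries. With the replicate number as that block, the change of Jun was -0.53 ± 0.12 and passed (edgeR adjusted p = 0.00981). Without the 3 libraries it also passed, at -0.58 (edgeR adjusted p = 0.0177), and leaving out 1 library at a time gave adjusted p-values of 0.0264 to 0.2. The difference between the CD8 and the CD4 change of Jun was -0.18 ± 0.21 on the log2 scale (edgeR adjusted p = 0.975), with a 95% interval of -0.62 to 0.25. Over all 4 groups Jun was lowest in CD8 CD5hi cells and highest in CD4 CD5lo cells, with CD8 CD5lo and CD4 CD5hi cells between them and within each other's spread.

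Jun was the only member to pass in CD8 cells, 1 of 8 and lower, where 9.46% of all tested genes passed and 3.51% passed as lower. In CD4 cells 0 of 8 members passed in the fit without the block, where 4.08% of all tested genes passed. Unadjusted, 2 members had p under 0.05 in CD4 cells, Jun and Fosb; DESeq2 called 1 member there, Jun, and limma 0. With the block, 1 of 8 passed in CD4 cells, against 9.68% of all genes. Groups that do not overlap were found for 1 of 8 members in each lineage, Jun in both, against 14.8% of all tested genes in CD8 and 9.29% in CD4 cells. With 8 genes these shares are near the background, and the fall of Jun is a result about 1 gene and not about the family. Of the difference between lineages, 0 of 8 members passed (edgeR; 0 also unadjusted, with DESeq2 and with limma) and 0.31% of all genes did.

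**Figure D2:**
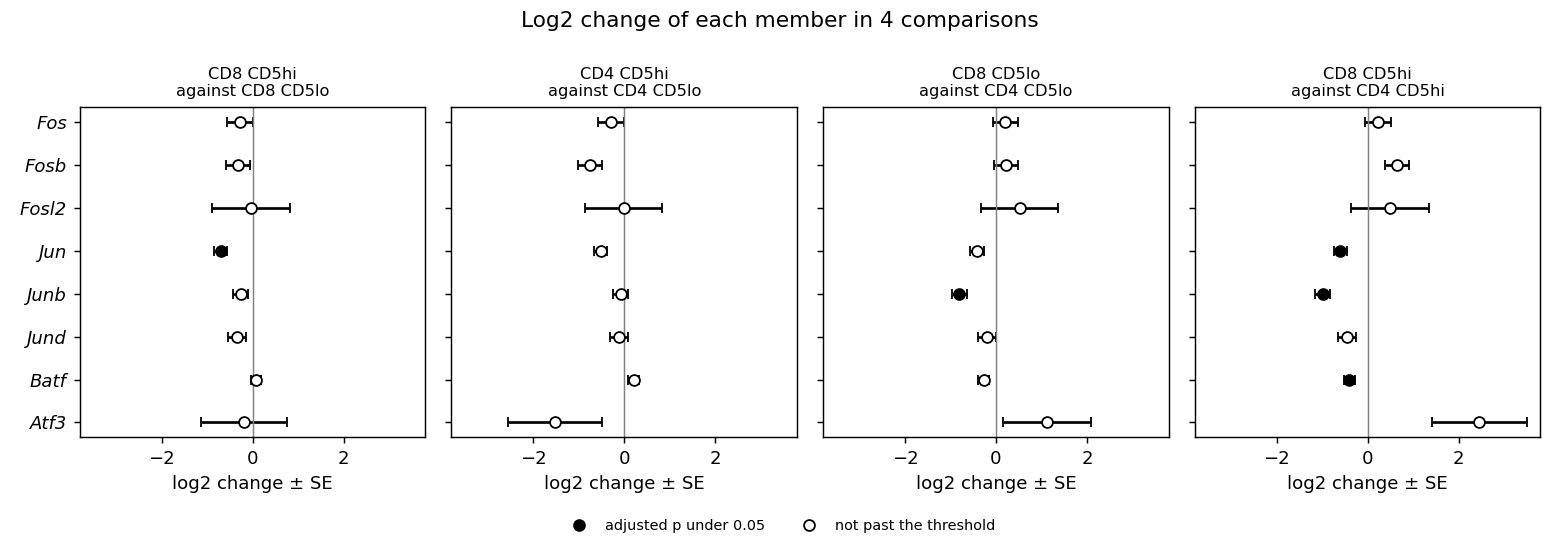
Log2 change of each gene in 4 comparisons, with bars for the standard error and filled points for adjusted p under 0.05 in edgeR's quasi-likelihood test. Jun lies left of 0 in all 4 panels, Junb is furthest left in the panels of CD8 against CD4, and Fosl2 and Atf3 have the widest bars.

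Junb encodes JunB, which pairs with FOS and BATF proteins and is known in mouse for its part in helper and regulatory T cells. In replicates 1 to 4 it had 1044, 1256, 1313 and 1698 CPM in CD8 CD5hi cells against 2018, 2789, 2805 and 2914 CPM in CD4 CD5hi cells. In CD5lo cells it had 1145, 1820, 1859 and 1539 CPM in CD8 against 2652, 2670, 3312 and 2458 CPM in CD4. The 8 CD8 libraries all lay below the 8 CD4 libraries. Junb fell by 0.99 ± 0.17 on the log2 scale in CD8 CD5hi against CD4 CD5hi cells (edgeR adjusted p = 0.000311) and by 0.80 ± 0.17 in CD8 CD5lo against CD4 CD5lo cells (edgeR adjusted p = 0.00246), so that CD8 cells held 0.505 and 0.574 of the CD4 level. By CD5 level it did not pass in either lineage, at -0.26 ± 0.17 in CD8 cells (edgeR adjusted p = 0.389) and -0.08 ± 0.17 in CD4 cells (edgeR adjusted p = 0.981). The 95% interval in CD4 cells, -0.43 to 0.28 on the log2 scale, leaves room for a difference in either direction.

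Jund encodes JunD, the JUN protein that is present in resting cells and is known in mouse for restraining lymphocyte growth. It had 582.6, 860.6, 886.5 and 1019 CPM in CD8 CD5hi cells, 789.1, 1133, 1243 and 1102 CPM in CD8 CD5lo cells, 753.7, 1298, 1254 and 1243 CPM in CD4 CD5hi cells and 1168, 1025, 1579 and 1126 CPM in CD4 CD5lo cells. CD5hi and CD5lo overlapped in both lineages, as did CD8 and CD4 at each CD5 level. In CD8 cells CD5hi was the lower in 4 of 4 pairs of the same number, with a change of -0.35 ± 0.20 that did not pass (edgeR adjusted p = 0.322). In CD8 CD5hi against CD4 CD5hi cells the change was -0.44 ± 0.20 without the block (edgeR adjusted p = 0.107), and it passed with the block at -0.44 ± 0.13 (edgeR adjusted p = 0.0104).

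The makeup of the JUN genes differed between the lineages. Of the summed CPM per kb of Jun, Junb and Jund, Junb made up 41.7 to 45.3% in CD8 CD5hi against 50.6 to 53.5% in CD4 CD5hi libraries, and 36.8 to 42.7% in CD8 CD5lo against 46.4 to 50.9% in CD4 CD5lo libraries. The CD8 and CD4 ranges do not overlap at either CD5 level. Jund took the larger share in CD8 cells, 34.9 to 40.9% in CD5hi and 35.0 to 39.4% in CD5lo libraries, against 27.1 to 33.0% and 26.9 to 33.5% in CD4 libraries of the same CD5 level. The ratio of Junb to Jun per kb also differed by CD5 level. It was 2.46 ± 0.306 in CD8 CD5hi against 1.82 ± 0.446 in CD8 CD5lo cells, and 3.23 ± 0.584 in CD4 CD5hi against 2.42 ± 0.609 in CD4 CD5lo cells (SD, n = 4 each). The ranges of that ratio overlap between CD5hi and CD5lo in both lineages, and within each replicate number CD5hi had the higher ratio in 4 of 4 pairs in each. These shares were described after the levels were known, and no test was run on them.

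**Figure D3:**
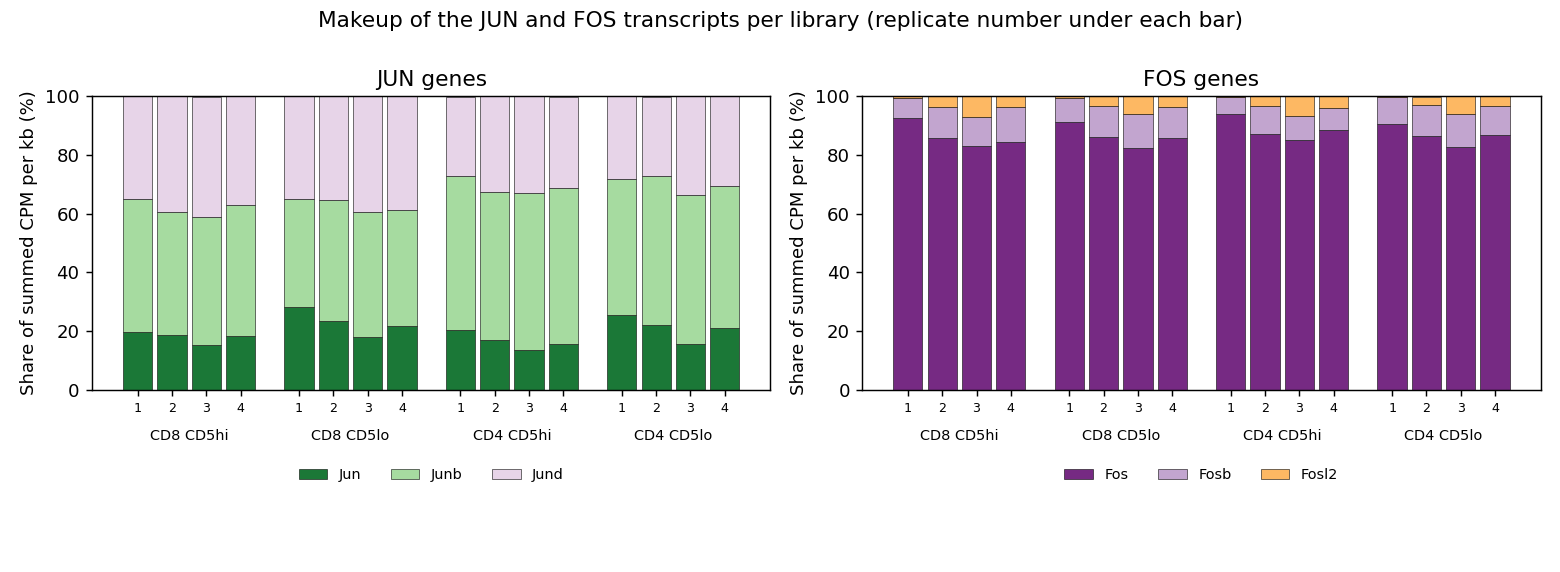
Share of the summed CPM per kb of the JUN genes (left) and of the FOS genes (right) in each library, with the replicate number under each bar. Junb holds a smaller share in every CD8 library than in every CD4 library of the same CD5 level, Fos holds 82.4 to 94.1% of the FOS genes, and Fosl2 holds at most 0.636% of them in replicate 1.

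Fos encodes c-Fos, the classic immediate-early partner of JUN proteins. In replicates 1 to 4 it had 677, 645, 689.2 and 551.7 CPM in CD8 CD5hi cells against 952.4, 866.3, 748.7 and 529.8 CPM in CD8 CD5lo cells. In CD4 cells it had 763.7, 502.9, 550.8 and 373.8 CPM in CD5hi against 1119, 584.2, 627.1 and 354.1 CPM in CD5lo cells. The groups overlapped, and in both lineages CD5hi was the lower in replicates 1 to 3 and the higher in replicate 4. The log2 change was -0.27 ± 0.28 in CD8 cells (edgeR adjusted p = 0.627) and -0.29 ± 0.28 in CD4 cells (edgeR adjusted p = 0.852), with 95% intervals of -0.865 to 0.32 and -0.89 to 0.30. Fos was the lowest in replicate 4 of all 4 groups and the highest in replicate 1 of 3 of them. The replicate number took 63.1% of its sum of squares over the 16 libraries (log2 CPM) and the group 18.1%, against medians of 29.0% and 40.1% over the tested genes.

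Fosb encodes FosB, a close relative of c-Fos. It had 131.5, 210, 220.9 and 203.6 CPM in CD8 CD5hi cells against 223.7, 280.5, 280.6 and 172.2 CPM in CD8 CD5lo cells, and the groups overlapped. In CD4 cells it had 121, 145.2, 137.6 and 84.9 CPM in CD5hi against 303.2, 185.2, 227 and 104.3 CPM in CD5lo cells, with CD5hi the lower in 4 of 4 pairs of the same number. The CD4 change was -0.75 ± 0.27 on the log2 scale and did not pass (edgeR adjusted p = 0.19; with the block, adjusted p = 0.0531). It passed in 1 of the 16 fits that left out a library, that without CD4 CD5lo replicate 4, at -0.97 (edgeR adjusted p = 0.0318). The CD8 change was -0.32 ± 0.27 (edgeR adjusted p = 0.529). In CD8 CD5hi against CD4 CD5hi cells Fosb differed by 0.65 ± 0.27 (edgeR adjusted p = 0.0796), and with the block it passed as higher, at 0.70 ± 0.22 (edgeR adjusted p = 0.0181), as it did with DESeq2 (adjusted p = 0.0372).

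Fosl2 encodes Fra-2, a FOS protein known in mouse for holding helper T cell programmes in check. It had 19.1, 111, 239.6 and 99.5 CPM in replicates 1 to 4 of CD8 CD5hi cells against 25.5, 139, 223 and 93.5 CPM in CD8 CD5lo cells. In CD4 cells it had 10.3, 76.0, 180.3 and 65.8 CPM in CD5hi against 12.5, 84.5, 183.2 and 55.5 CPM in CD5lo cells. Replicate 3 was the highest, then 2, 4 and 1, in all 4 groups. The highest library held 12.5-fold the lowest in CD8 CD5hi, 8.73-fold in CD8 CD5lo, 17.5-fold in CD4 CD5hi and 14.7-fold in CD4 CD5lo cells. The replicate number took 93.2% of the sum of squares of Fosl2, rank 44 of 13554 genes.

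By CD5 level Fosl2 stayed within that spread, with log2 changes of -0.04 ± 0.85 in CD8 cells (edgeR adjusted p = 0.986) and -0.01 ± 0.85 in CD4 cells (edgeR adjusted p = 0.999). Between lineages the change was 0.50 ± 0.86 at high CD5 (edgeR adjusted p = 0.712) and 0.52 ± 0.86 at low CD5 (edgeR adjusted p = 0.776). With the replicate number as a block the error shrank to 0.12, and Fosl2 passed as higher in CD8 cells at both levels, by 0.59 at high CD5 (edgeR adjusted p = 0.000967) and 0.70 at low CD5 (edgeR adjusted p = 0.000381). In each of the 4 replicate numbers the CD8 library was higher than its CD4 counterpart, at both CD5 levels. What the replicate numbers stand for, such as a day, a kit or an animal, is not stated in the labels, and 2 library kits are named without saying which sample had which.

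**Figure D4:**
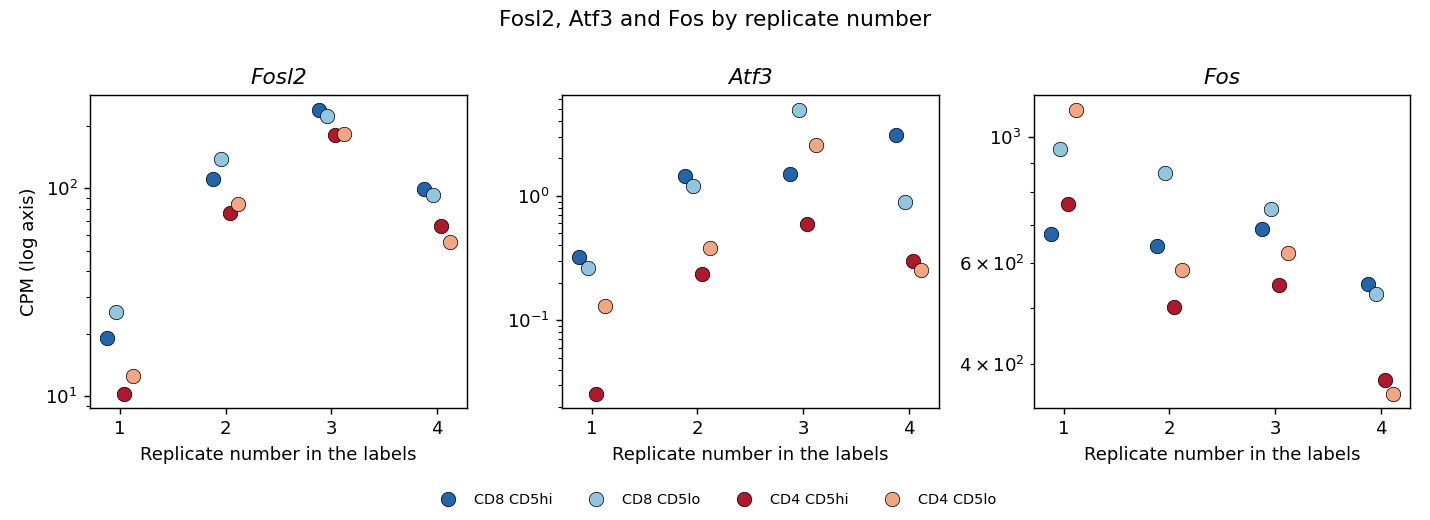
CPM of Fosl2, Atf3 and Fos on a log axis against the replicate number in the labels, coloured by group. Fosl2 follows the same order of replicates in the 4 groups, and its CD8 libraries lie above the CD4 libraries of the same number and CD5 level.

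Batf encodes a small AP-1 protein without an activation domain of its own, needed in mouse for several T helper fates. It was low and steady, with 29.2, 21.4, 22.6 and 24.0 CPM in CD8 CD5hi cells against 35.0, 25.0, 34.0 and 34.0 CPM in CD4 CD5hi cells. In CD5lo cells it had 23.7, 21.1, 24.3 and 22.9 CPM in CD8 against 28.7, 24.8, 31.4 and 25.7 CPM in CD4. Batf fell in CD8 CD5hi against CD4 CD5hi cells by 0.40 ± 0.12 on the log2 scale (edgeR adjusted p = 0.017), lower in 4 of 4 pairs of the same number, although the groups overlap through replicate 1 of CD8 and replicate 2 of CD4. That call was lost on leaving out CD4 CD5hi replicate 3 or 4 or CD8 CD5hi replicate 2 or 3 (edgeR adjusted p = 0.0501 to 0.0619). In CD5lo cells CD8 and CD4 did not overlap, and the change of -0.26 ± 0.12 passed with the block only (edgeR adjusted p = 0.145 without it and 0.0184 with it). By CD5 level the changes were 0.08 ± 0.12 in CD8 cells (edgeR adjusted p = 0.761) and 0.21 ± 0.12 in CD4 cells (edgeR adjusted p = 0.543).

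Atf3, a stress-induced gene of many cell types, had 2 to 355 counts per library. In replicates 1 to 4 it had 0.321, 1.45, 1.51 and 3.09 CPM in CD8 CD5hi cells and 0.264, 1.19, 4.94 and 0.894 CPM in CD8 CD5lo cells. It had 0.0257, 0.237, 0.591 and 0.302 CPM in CD4 CD5hi cells and 0.129, 0.380, 2.56 and 0.256 CPM in CD4 CD5lo cells. Its highest library in CD8 CD5hi, CD8 CD5lo and CD4 CD5lo cells was in each case the library rich in B cell markers, and their part in these values was not tested. CD8 CD5hi against CD4 CD5hi cells gave 2.46 ± 1.04 on the log2 scale (edgeR adjusted p = 0.0865), and with the block 2.81 ± 0.54, which passed (edgeR adjusted p = 0.000609). Without the 3 libraries it was 1.94 (edgeR adjusted p = 0.0527). By CD5 level it was -0.19 ± 0.95 in CD8 cells (edgeR adjusted p = 0.94) and -1.52 ± 1.03 in CD4 cells (edgeR adjusted p = 0.675), and without the 3 libraries these were 0.50 in CD8 and 0.18 in CD4 cells, the other direction in both.

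Between the lineages, the members that passed were thus Jun, Junb and Batf at high CD5, all lower in CD8 cells, and Junb alone at low CD5. At high CD5 these are 3 of 8, where 30.3% of all tested genes passed and 14.8% passed as lower; at low CD5 it is 1 of 8, where 19.5% passed and 9.44% passed as lower. Jun had a log2 change of -0.60 ± 0.15 at high CD5 (edgeR adjusted p = 0.00528), with every CD8 library below every CD4 library, and -0.41 ± 0.15 at low CD5 (edgeR adjusted p = 0.0588). At low CD5 Jun passed with the block, at -0.42 ± 0.12 (edgeR adjusted p = 0.0136). With the block 7 of 8 members passed at high CD5, 3 higher and 4 lower in CD8 cells, against 46.7% of all genes, and 4 of 8 at low CD5, 1 higher and 3 lower, against 32.1%. The members that passed as higher in CD8 cells were Fosb, Fosl2 and Atf3, and those that passed as lower were Jun, Junb, Jund and Batf. Groups that do not overlap were found for 2 of 8 members at high CD5, Jun and Junb, and for 2 of 8 at low CD5, Junb and Batf, against 28.9 and 22.3% of all genes. The ratio of summed JUN to summed FOS genes per kb was 3.22 to 5.95 in CD8 CD5hi against 4.83 to 13.3 in CD4 CD5hi libraries, and 3.05 to 6.47 in CD8 CD5lo against 4.73 to 12.8 in CD4 CD5lo libraries. Within every replicate number the CD8 ratio was the lower at both CD5 levels.

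As a list, 7 of the 8 members had a log2 change below 0 in CD8 CD5hi against CD5lo cells, with a median of -0.27 (all tested genes, -0.00), and 7 of 8 in CD4 cells, with a median of -0.20 (all tested genes, -0.01). Without the 3 B-cell-rich libraries the CD8 median was -0.23 with 5 of 8 below 0, and the CD4 median turned to 0.03 with 3 of 8 below 0. Only CD4 CD5lo replicate 3 of those libraries is in the CD4 comparison. Leaving it out while CD4 CD5hi replicate 3 stays also unbalances the replicate numbers, and the change of Fosl2 was then 0.71 in CD4 cells. With the replicate block and all libraries, 7 of 8 members were below 0 in CD4 cells, with a median of -0.19. Jun was below 0 in all of these fits.

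Other immediate-early genes were followed because a stimulus or handling that raises AP-1 genes can raise many of these as well. Not every gene of the list need respond in that direction, so the list is not a uniform measure of induction. Of 28 such genes, 4 fell in CD8 CD5hi against CD5lo cells and 0 rose, with a median log2 change of -0.28 and 23 of 28 below 0. Of all tested genes, 9.46% passed in this comparison, 3.51% as lower, and 50.4% had a change below 0. They were Socs3, an inhibitor of cytokine signalling, at -1.33 ± 0.15 (edgeR adjusted p = 4.51e-05), Btg2, an antiproliferative factor, at -0.44 ± 0.10 (0.0094), Zfp36, which promotes RNA decay, at -0.45 ± 0.14 (0.0493), and Ppp1r15a, a stress-induced phosphatase subunit, at -0.52 ± 0.16 (0.0497). Without the 3 libraries 3 of the 28 fell, with a median of -0.20. In CD4 cells, where 4.08% of all tested genes passed, Socs3 fell by 0.87 ± 0.14 (edgeR adjusted p = 0.00153) and Btg2 by 0.36 ± 0.10 (0.0499), while Egr3, induced by T cell receptor signals, rose by 0.52 ± 0.13 (0.0357). Without the 3 libraries only Socs3 of the 28 passed in CD4 cells, where 3.94% of all tested genes passed. The median of the 28 was then 0.03, against -0.13 with all libraries.

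The summed level of the 28 genes was 4555 to 6751 CPM in CD8 CD5hi against 6238 to 8514 CPM in CD8 CD5lo libraries, and 6400 to 8617 CPM in CD4 CD5hi against 7454 to 9930 CPM in CD4 CD5lo libraries. Its largest part in CD8 cells was Klf2, at 915 ± 257 CPM in CD5hi against 1179 ± 280 CPM in CD5lo cells. The sum of the 28 genes was the lowest in replicate 1 of 3 of the 4 groups, the replicate in which Fosl2 was the lowest in 4 groups and Fos the highest in 3. Of 13 heat-shock genes, which respond to stress on the cells, 1 fell in CD8 CD5hi against CD5lo cells, the co-chaperone gene Dnajb1, at -0.43 ± 0.13 (edgeR adjusted p = 0.0435). In CD4 cells 0 passed with edgeR in the fit without the block (1 unadjusted, 1 with DESeq2, 0 with limma). With the block 3 of the 13 fell in CD4 cells, against 9.68% of all tested genes. These were Dnajb1 (edgeR adjusted p = 0.00558), Hsph1 (0.025) and Dnajb4 (0.0357). Without the 3 B-cell-rich libraries Dnajb1 alone fell in CD4 cells (edgeR adjusted p = 0.0456), where 3.94% of all tested genes passed. The sum of the 13 heat-shock genes was 5814 to 6531 CPM in CD8 CD5hi against 5299 to 6361 CPM in CD8 CD5lo libraries, and 5312 to 6267 CPM in CD4 CD5hi against 5630 to 7492 CPM in CD4 CD5lo libraries. It was the lowest in replicate 4 of every group, as Fos was. Its largest parts in CD8 cells were Hsp90ab1, at 2250 ± 233 CPM in CD5hi against 1907 ± 96.3 CPM in CD5lo cells, and Hspa8, at 1706 ± 195 against 1524 ± 180 CPM. Gene by gene, 5 of the 13 had a log2 change below 0 in CD8 cells, among them Dnajb1, Hspa1a and Hspa1b, with a median of 0.09. In CD4 cells 11 of the 13 were below 0, with a median of -0.16. Of all tested genes, 50.4% in CD8 and 52.4% in CD4 cells were below 0. The part of cell handling in the AP-1 levels was not tested. The 5 regulatory T cell markers also moved with CD5, summing to 108 to 129 CPM in CD8 CD5hi against 66.0 to 101 CPM in CD8 CD5lo libraries and to 105 to 126 CPM in CD4 CD5hi against 67.0 to 88.3 CPM in CD4 CD5lo libraries, none of the 5 at 0 in any group, and their part in the fall of Jun was not tested.

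**Figure D5:**
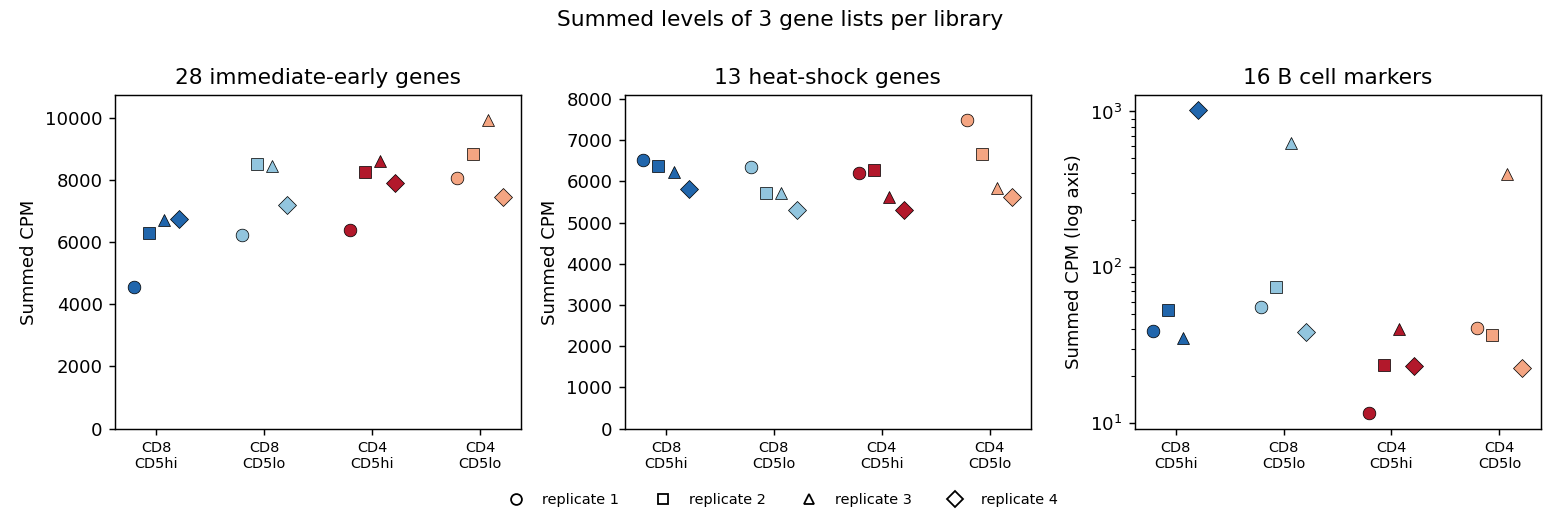
Summed CPM of 28 immediate-early genes other than AP-1, 13 heat-shock genes and 16 B cell markers (log axis) in each library, by group, with the marker shape giving the replicate number. The immediate-early sum is the lowest in replicate 1 of 3 groups, the heat-shock sum is the lowest in replicate 4 of every group, and 3 libraries stand above the rest in B cell markers.

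Genes around AP-1 are set beside the 9.46% of all tested genes that passed by CD5 level in CD8 cells and the 4.08% in CD4 cells. Of 27 tested genes for other leucine zipper factors, 1 rose in CD8 CD5hi against CD5lo cells, the endoplasmic reticulum stress sensor Atf6, by 0.50 ± 0.14 (edgeR adjusted p = 0.0353). In CD4 cells 0 passed with edgeR without the block (2 unadjusted, 0 with DESeq2 and limma), and Atf6 had 0.45 ± 0.14 (edgeR adjusted p = 0.108). With the block, where 9.68% of all tested genes passed in CD4 cells, Atf6 alone of the 27 passed, as higher (edgeR adjusted p = 0.00558). Of 21 genes of the MAP kinase path and the ternary complex that act upstream of Fos and Jun, 1 rose in each lineage, Elk3, a partner of the serum response factor; DESeq2 called 2 of the 21 in CD8 and 3 in CD4 cells. Elk3 rose by 0.28 ± 0.07 in CD8 cells (edgeR adjusted p = 0.0268) and by 0.42 ± 0.07 in CD4 cells (edgeR adjusted p = 0.00255). With the block 3 of the 21 rose in CD4 cells, Elk3, Mapk11 (edgeR adjusted p = 0.00147) and Mapk3 (0.00977). Of 11 regulators and partners of AP-1, including the NFAT genes and the ubiquitin ligase Itch, 0 passed in CD8 cells with edgeR (0 also unadjusted, with DESeq2 and with limma) and 1 fell in CD4 cells, Nedd4, a ligase related to Itch, by 0.85 ± 0.17 (edgeR adjusted p = 0.00593).

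Of 14 activation genes with AP-1 or NFAT-AP-1 control, 9 were tested. Pdcd1, which encodes the inhibitory receptor PD-1, rose by 1.77 ± 0.22 in CD8 cells (edgeR adjusted p = 0.000141), to 4.13 ± 1.17 CPM in CD5hi against 1.21 ± 0.125 CPM in CD5lo cells. In CD4 cells Pdcd1 rose by 1.98 ± 0.22 (edgeR adjusted p = 3.53e-05), to 7.73 ± 1.88 CPM in CD5hi against 1.96 ± 0.369 CPM in CD5lo cells. Tnf, which encodes a proinflammatory cytokine, fell by 0.76 ± 0.16 in CD8 cells (edgeR adjusted p = 0.00733) and had -0.17 ± 0.16 in CD4 cells (edgeR adjusted p = 0.853). Cd69, an early activation marker, did not pass in either lineage, at -0.25 ± 0.21 in CD8 cells (edgeR adjusted p = 0.541) and -0.32 ± 0.21 in CD4 cells (edgeR adjusted p = 0.657). Without the 3 B-cell-rich libraries, 3 of the 9 rose and 1 fell in CD8 cells, and 2 rose and 0 fell in CD4 cells. In CD8 cells Cd40lg then rose by 2.61 (edgeR adjusted p = 5.84e-05, and 0.0695 with all libraries). Without the 3 libraries Ifng rose in CD8 cells by 1.395 (edgeR adjusted p = 0.037, and 0.295 with all libraries), beside Pdcd1, and Tnf fell. Ifng had 3.84 ± 0.819 CPM in CD8 CD5hi against 1.87 ± 0.686 CPM in CD8 CD5lo cells with all libraries. In CD4 cells without the 3 libraries Il2ra rose by 1.32 (edgeR adjusted p = 0.0327, and 0.434 with all libraries), beside Pdcd1. Il2ra had 5.43 ± 2.72 CPM in CD4 CD5hi against 2.48 ± 0.729 CPM in CD4 CD5lo cells with all libraries.

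The genes whose log2 CPM followed each member most closely over the 16 libraries were found among 8781 genes with a mean of at least 5 CPM, by Pearson's r, as a description over libraries that share groups and replicate numbers. Fosl2 was followed by Chka (r = 0.969), Tgif1 (0.960) and Dusp4 (0.955), which shared its order of replicates: Dusp4 had 6.01, 19.8, 25.4 and 15.2 CPM in replicates 1 to 4 of CD8 CD5hi cells. Junb was followed by Gmeb2 (0.974), Prkce (0.972) and Zmynd8 (0.968), and Jun by Cacnb1 (0.956), Fam212b (0.942) and Gfod2 (0.926). Cacnb1 averaged 16.0 ± 4.04 CPM in CD8 CD5hi against 35.0 ± 5.95 CPM in CD8 CD5lo cells, and 35.2 ± 2.29 CPM in CD4 CD5hi against 56.6 ± 6.01 CPM in CD4 CD5lo cells, lowest in CD8 CD5hi and highest in CD4 CD5lo cells, as Jun was. Jund was followed by Abtb2 (0.951), Kdm6b (0.942) and Fbrsl1 (0.939), and Batf by Sdf4 (0.926), Uqcc3 (0.923) and Senp3 (0.915). The closest genes were further from Atf3, with Cdt1 (0.917), Fzd5 (0.912) and Spata13 (0.907), from Fos, with Ddx47 (0.851), Tpcn2 (0.837) and Pank4 (0.826), and from Fosb, with Nob1 (0.797), Ccdc28b (0.794) and Fnbp4 (0.785). The 3 closest genes of each member were not shared with another member.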

How the data were processed

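The samples were 16 libraries of sorted naive T cells, 4 per group, grouped by their labels. RNA was taken up in TRIzol and cleaned on RNeasy columns, and libraries came from a TruSeq kit, either the stranded mRNA one or RNA version 2, per the labels' protocols. The submitters' processing notes list STAR 2.5.2a, featureCounts 1.4.6-p3, DESeq2 and the mm10 build. The deposited values were raw counts, whole numbers for 24421 genes. The design names technical replicates, but each sample has a single column, and 0 columns were left unmatched. Counts of 1 to 9 were even in 73.9 to 80.5% of cases. Pairs of libraries in a group differed by more than counting noise (chi-square of 30.08 to 215.5 times its degrees of freedom).

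The counts went into edgeR 4.0.16 (R 4.3.3), using TMM scaling, the filterByExpr filter (count of at least 10, total of at least 15), a mean for each group fitted to the 16 samples together (12 residual degrees of freedom) and the two-sided quasi-likelihood F test. P-values were adjusted by Benjamini-Hochberg over 13554 genes in each of 5 comparisons, with a threshold of 0.05. The SE is the log2 change over the square root of F. CPM is TMM-scaled, and per kb uses exonic lengths of the GENCODE annotation of GRCm38. Promoter windows come from RefSeq. Alternatives were a replicate block, another scaling, no filter, DESeq2 1.42.0, limma 3.58.1, only the groups compared and each library left out. Leaving out the B-cell-rich libraries and halving all counts were chosen once the data had been seen. The procedure was tested on simulated data.

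The replicate numbers were taken to pair samples where every same-numbered pair of deviations from the group means correlated above 0.1. That held between CD8 CD5lo and CD4 CD5lo samples (0.203 to 0.704), CD8 CD5hi and CD4 CD5hi samples (0.235 to 0.538) and CD4 CD5hi and CD4 CD5lo samples (0.251 to 0.534), from the data alone, and not between CD8 CD5hi and CD8 CD5lo samples. Nor did it hold between CD8 CD5hi and CD4 CD5lo samples (-0.0279 to 0.373). The block was fitted once over all 16 libraries, so its replicate terms and spread also drew on these unpaired groups. Every result given with the block carries that limit. The value of 0.704 is between B-cell-rich libraries, replicate 3 of CD8 CD5lo and of CD4 CD5lo. B-cell-rich CD8 CD5lo replicate 3 and CD8 CD5hi replicate 4 correlated at 0.4265, while same-numbered CD8 replicates 3 and 4 gave 0.02745 and -0.0401. The part of the B cell markers in the pairing was not tested. The members and lists were chosen with earlier results of these data known. All 8 members are named; of the other lists, those that passed in a CD5 comparison, at most 4 by adjusted p, and the 3 genes most like each member. Cd69 was named after its values were seen, as were the genes named for passing only with the block or only without the B-cell-rich libraries.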

Additional observations from a re-analysis of the deposited data

Results flagged for a closer look

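In 4 of the 32 sets of 4 libraries examined (8 genes in 4 groups), 1 library lay far from the other 3 by Dixon's test of the gap to the nearest library. Chance flags about 1 set in 20. CD4 CD5hi replicate 1 was far below the other 3 libraries of its group for Junb, at 2018 CPM against 2789 to 2914 CPM, and for Jund, at 753.7 CPM against 1243 to 1298 CPM. Replicate 1 was also the lowest of CD8 CD5hi and of CD8 CD5lo for both genes. CD4 CD5hi replicate 2 was far below the others for Batf, at 24.95 CPM against 33.96 to 34.97 CPM. CD4 CD5lo replicate 3, one of the libraries rich in B cell markers, was far above the others for Atf3, at 2.56 CPM against 0.129 to 0.380 CPM.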

How the results depend on the processing

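Over the 8 members, 5 comparisons and all alternatives, 875 values kept their direction and side of the threshold, 43 differed in sign with neither value past the threshold, 29 newly passed, 5 lost their call and 0 reversed as called results. The fall of Jun in CD8 cells passed under every alternative, with edgeR adjusted p-values of 0.000872 to 0.0257 on leaving out 1 library and 0.000677 with the replicate block; the replicate numbers were not taken to pair the CD8 CD5hi and CD8 CD5lo samples, since 2 of 4 same-number correlations were above 0.1 (-0.0401 to 0.562). With that block 3390 genes passed in CD8 cells, against 1282 without it, and 379 against 42 for the difference between lineages, where DESeq2 gave 215, leaving out 1 library 8 to 165 and leaving out the B-cell-rich libraries 129. In CD8 cells 813 genes passed with only the groups compared, 763 without CD8 CD5hi replicate 2 and 811 without CD8 CD5lo replicate 4. The blocked counts were 1312 against 553 in CD4 cells, 4345 against 2638 between lineages at low CD5 and 6336 against 4111 at high CD5; the block changed no other member's call than those given above. In CD4 cells 1 member passed, in place of 0, with the replicate block, with DESeq2, with only the groups compared and without the 3 B-cell-rich libraries (Jun each time), and 0 to 1 on leaving out 1 library: Jun without CD8 CD5hi replicate 1 or 4 or CD4 CD5lo replicate 3, Fosb without CD4 CD5lo replicate 4. At low CD5, CD8 against CD4 had 4 members with the replicate block, 2 with DESeq2 and with only the groups compared, and 1 to 2 on leaving out 1 library, in place of 1; the second was Jun. It passed without CD8 CD5hi replicate 1 or 4, CD8 CD5lo replicate 2 or CD4 CD5lo replicate 3. At high CD5 there were 7 members with the block, 4 with DESeq2, which added Fosb (adjusted p = 0.0372), and 2 to 4 on leaving out 1 library, in place of 3. The cause of these moves was not tested. With only the groups compared at high CD5, Batf lost its call (edgeR adjusted p = 0.0533) while Fosb (0.0332) and Atf3 (0.0404) newly passed as higher in CD8 cells. Depth limits Atf3 alone, which had 2 to 355 counts per library.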

Other observations

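More genes around AP-1 passed between the lineages than by CD5 level, as did more of all tested genes. Of 27 other leucine zipper genes, 2 rose and 5 fell in CD8 CD5hi against CD4 CD5hi cells, and 2 rose and 4 fell in CD8 CD5lo against CD4 CD5lo cells. Of 28 immediate-early genes other than AP-1, 2 rose and 10 fell at high CD5 and 2 rose and 6 fell at low CD5. Of 9 activation genes with AP-1 or NFAT-AP-1 control, 1 rose and 5 fell at high CD5 and 1 rose and 3 fell at low CD5. Of 13 heat-shock genes, 4 rose at high CD5 and 0 passed at low CD5 with edgeR without the block (5 unadjusted, 1 with DESeq2, 0 with limma). With the block 5 of the 13 rose and 5 fell at high CD5, against 46.7% of all tested genes. At low CD5 2 rose and 6 fell with it, against 32.1%. Of 21 MAP kinase and ternary complex genes, 2 rose and 4 fell at high CD5 and 1 rose and 2 fell at low CD5, and of 11 regulators and partners 2 rose and 0 fell at each level. The counts without the block stand beside 30.3% of all tested genes at high and 19.5% at low CD5.

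Nedd4, chosen here after its values were seen, averaged 111 ± 12.9 CPM in CD8 CD5hi against 5.26 ± 0.866 CPM in CD4 CD5hi cells and 105 ± 5.26 CPM in CD8 CD5lo against 9.49 ± 2.65 CPM in CD4 CD5lo cells (SD, n = 4 each). The log2 changes were 4.39 ± 0.18 (edgeR adjusted p = 8.6e-11) and 3.47 ± 0.18 (edgeR adjusted p = 8.12e-10). Nr4a1, an immediate-early gene that reports T cell receptor signals, also chosen after its values were seen, fell by 1.59 ± 0.44 at high CD5 (edgeR adjusted p = 0.0115) and by 1.45 ± 0.44 at low CD5 (edgeR adjusted p = 0.0275), the direction of Junb in the same cells. Related genes differed in direction. Nr4a2 averaged 38.4 ± 24.7 CPM in CD8 CD5hi against 11.2 ± 7.41 CPM in CD4 CD5hi cells, and Egr3 68.4 ± 10.9 against 50.6 ± 6.39 CPM. In the same groups Nr4a3 had 39.6 ± 21.5 against 60.9 ± 36.8 CPM, and Egr1 156 ± 25.8 against 266 ± 46.2 CPM, the direction of Nr4a1. The 7 natural killer cell markers summed to 446 to 568 CPM in CD8 CD5hi and 325 to 397 CPM in CD8 CD5lo libraries, against 3.60 to 8.26 CPM in CD4 libraries, and the 5 stroma markers to 145 to 172 CPM in CD8 against 230 to 273 CPM in CD4 libraries. Up to 2 of the 7 had 0 counts in a CD8 library, and up to 1 of the 5 in a CD4 library. The sums need not come from every marker, and single markers were not followed. Their part in the differences between lineages was not tested.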
